A study of Mus musculus with 18 samples.

Results

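The SLC25 mitochondrial carriers were taken as every gene whose symbol is Slc25a followed by a number, which gave 47 of the 53465 genes counted. All 47 had at least 1 read in some library. Their transcripts were measured by RNA sequencing in skeletal muscle (SKM), white adipose tissue (WAT) and brown adipose tissue (BAT) of wild-type C57BL/6J mice. One arm received quercetin, a plant flavonol, at 0.125 mg/kg by gavage in 100 µL of PBS with 10% PEG400. The other arm received that PEG400 solution alone, the vehicle, so all animals were exposed to PEG400. Each of the 6 groups of tissue and arm held 3 libraries. The age of 14 months and the male sex are stated for the lifespan experiment of the study. For the sequenced animals themselves no source used here gives the age, the sex, how long they were treated or the white fat depot. Nothing beyond the numbering of the titles says which libraries came from separate animals, so a p-value here measures the spread between these libraries.

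The SLC25 proteins form the main gate of the inner mitochondrial membrane. Each carrier is a bundle of membrane helices that opens alternately to the cytosol and to the matrix and exchanges a nucleotide, a carboxylate, an amino acid, a cofactor or an ion. In muscle they feed oxidative phosphorylation with ADP and phosphate. In fat cells the citrate carrier exports the carbon for fatty acid synthesis, and in brown fat the acylcarnitine carrier brings in the fatty acids that are burnt for heat. Slc25a34 and Slc25a35 are close relatives of each other and of the yeast oxaloacetate carrier, and their substrates in mammals are not agreed on.

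Counts over all genes were 8436308 to 12311345 per library, of which 19678 to 82952 fell on the family. Family reads made up 0.443 to 0.797% of muscle counts, 0.224 to 0.351% of white fat counts and 0.552 to 0.686% of brown fat counts. The labelled tissues carried their markers, with 4 libraries that stood apart. Ucp1, the uncoupling protein that defines brown fat, was at 3735 to 4745 CPM (counts scaled to library size) in 5 brown fat libraries and at 894 in BAT quercetin 3, which held 27350 CPM of 6 summed muscle fibre markers against 5.16 to 4783 in the others. SKM quercetin 2 held 26120 CPM of 4 seminal vesicle genes that had no read in the other muscle libraries, and Ucp1 at 280 CPM. SKM vehicle 3 held Adipoq, the adipocyte hormone, at 471 CPM, and WAT vehicle 2 held it at only 17.9 CPM with muscle markers at 924 CPM. Summed B cell markers were 425 to 2438 CPM in 4 white fat libraries and 0.981 and 2.55 CPM in WAT vehicle 1 and WAT quercetin 2. In bulk tissue, fewer cells of a type and less RNA per cell cannot be told apart.

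Slc25a34 lies at chr4:141618824-141623821 on the minus strand of GRCm38, with 2670 bases of exons. Its levels are given as CPM scaled over all 18 libraries. In muscle it was at 79.3, 42.5 and 31.7 CPM in vehicle libraries 1, 2 and 3 and at 18.6, 38.4 and 43.3 CPM in the quercetin libraries. In white fat it was at 40.1, 1.09 and 1.34 CPM with vehicle and at 0.477, 0.949 and 0.869 CPM with quercetin. In brown fat it was at 160.0, 88.3 and 90.1 CPM with vehicle and at 11.5, 22.4 and 16.0 CPM with quercetin. The arms of brown fat were far apart, those of muscle overlapped, and in white fat the vehicle group held a single high library while the other 5 rested on 6 to 18 reads each.

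Slc25a35 lies at chr11:68968131-68974365 on the plus strand, with 3677 bases of exons, of which 1151 (31.3%) also belong to the antisense gene Rangrf. Reads of the pair cannot be told apart without strand, and Rangrf itself was counted at 0 to 1.62 CPM. In muscle Slc25a35 was at 0.349, 6.02 and 6.30 CPM with vehicle and at 5.23, 10.5 and 5.43 CPM with quercetin. In white fat it was at 4.58, 5.76 and 5.81 CPM with vehicle and at 15.7, 15.5 and 17.7 CPM with quercetin. In brown fat it was at 27.9, 91.0 and 93.0 CPM with vehicle and at 166.6, 117.0 and 40.5 CPM with quercetin. The white fat arms did not overlap and were tight within themselves, whereas those of muscle and brown fat overlapped.

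**Figure D1:**
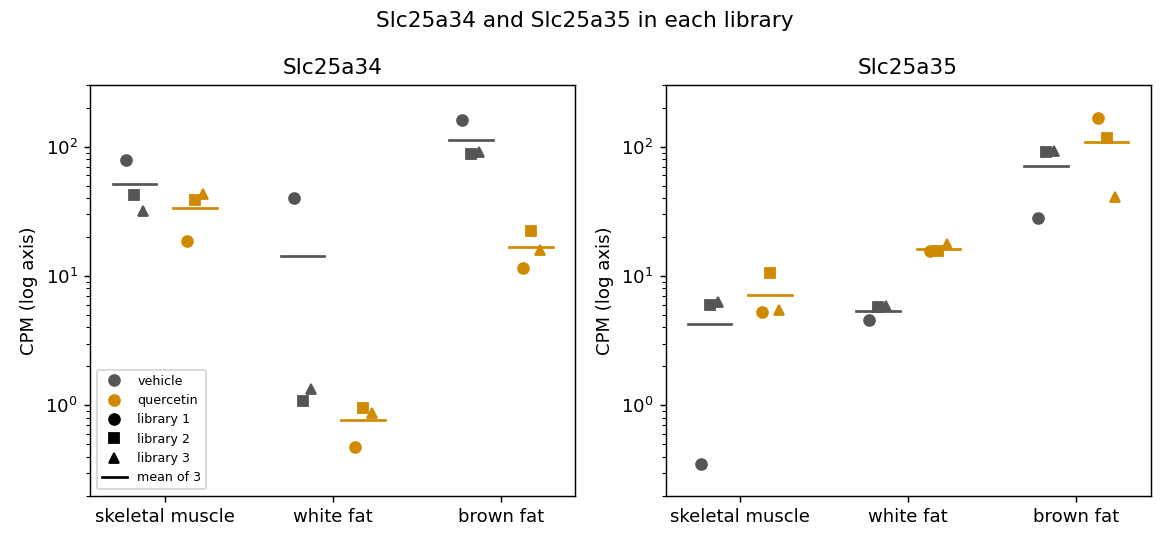
CPM of Slc25a34 (left) and Slc25a35 (right) on a log axis in each of the 18 libraries, by tissue and arm; each point is a library, its shape the library number, and each bar the mean of 3. Slc25a34 is lower in all 3 quercetin libraries of brown fat (11.5 to 22.4 CPM against 88.3 to 160.0), and Slc25a35 is higher in all 3 of white fat (15.5 to 17.7 CPM against 4.58 to 5.81).

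Per kilobase of exons, the only scale on which levels of different genes are compared here, the family was led by a different carrier in each tissue. In muscle Slc25a4, the ADP/ATP exchanger of muscle, stood at 1876 ± 701 CPM per kb (SD, n = 6) and made up 71.1% of the summed family level. Next came the phosphate carrier Slc25a3 at 164 ± 41.9 and the oxoglutarate carrier Slc25a11 at 143 ± 56.9 CPM per kb. In white fat the leader was Slc25a5, the ADP/ATP exchanger of dividing and many other cells, at 156 ± 44.1 CPM per kb (23.3% of the family). The citrate carrier Slc25a1 and Slc25a4 followed it at 83.4 ± 56.5 and 73.6 ± 12.4 CPM per kb, which did not differ beyond their spread. Slc25a5 also has a processed copy, Slc25a5-ps, so its counts are uncertain. In brown fat Slc25a1 led at 497 ± 375 CPM per kb (22.2% of the family), and its spread covered the levels of Slc25a4 (378 ± 301) and Slc25a5 (348 ± 93.5). Slc25a39, a glutathione importer, came next there at 164 ± 42.4 CPM per kb.

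In that order Slc25a34 ranked 12 of 47 in muscle, 28 in white fat and 14 in brown fat. Its levels per kb were 15.8 ± 7.60, 2.80 ± 5.99 and 24.2 ± 22.0 (SD, n = 6). Slc25a35 ranked 35, 27 and 13, at 1.53 ± 0.88, 2.94 ± 1.64 and 24.3 ± 13.8 CPM per kb. Averaged over both arms, the pair thus stood next to each other in brown fat, while in muscle Slc25a34 was well above Slc25a35 in all 6 libraries. The arms of brown fat were unlike. Per kb, Slc25a34 was above Slc25a35 in every vehicle library there and below it in every quercetin library. At the foot of the family, 7 carriers had fewer than 200 reads over all 18 libraries together. They were Slc25a2, Slc25a18, Slc25a21, Slc25a31 (the ADP/ATP exchanger of the testis), Slc25a41, Slc25a43 and Slc25a54.

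**Figure D2:**
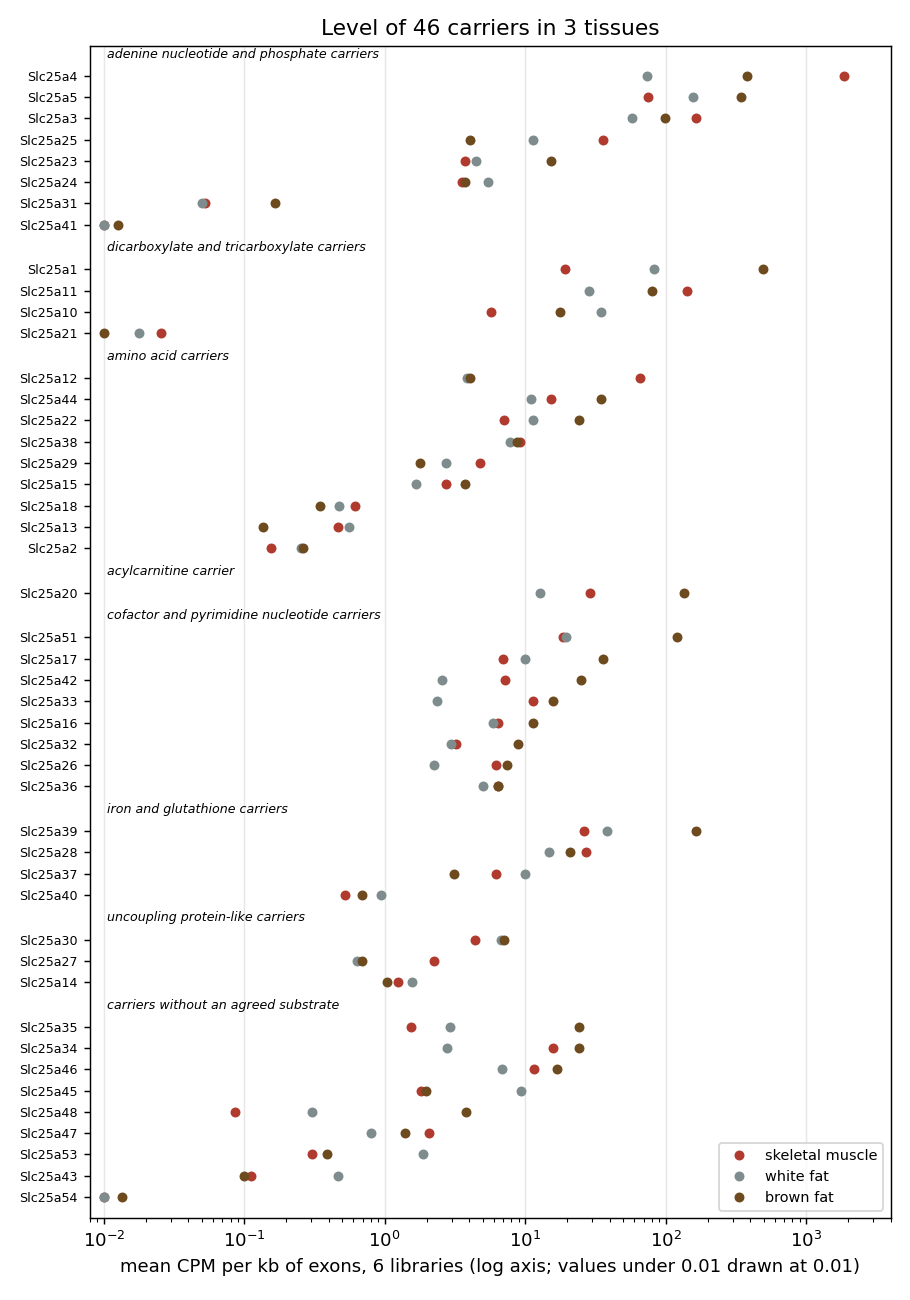
Mean level of 46 carriers over the 6 libraries of each tissue, in CPM per kb of exons on a log axis, grouped by role. The muscle point of Slc25a4 lies farthest to the right at 1876, and brown fat (dark brown) is the rightmost point for every carrier drawn in the cofactor and pyrimidine nucleotide group except Slc25a36, where it coincides with muscle at 6.43 and 6.44.

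Tissues were compared over all 18 libraries, with the mean of both arms of each tissue, by edgeR's quasi-likelihood test with Benjamini-Hochberg adjustment over 16388 genes at a threshold of 0.05. Of the 47 carriers 42 had enough reads to be tested, and 5 did not (Slc25a2, Slc25a21, Slc25a31, Slc25a41, Slc25a54). In brown against white fat 27 of the 42 passed, 23 of them higher in brown fat and 4 higher in white fat. Among all genes 40.3% passed, 18.3% higher and 22% lower in brown fat. The median log2 difference was 1.03 for the family and -0.13 for all genes. Against muscle, 23 carriers passed, 15 higher and 8 lower in brown fat, where 27.2% of all genes passed (13.9% higher, 13.3% lower), with a median of 0.36 for the family and 0.03 for all genes. White fat and muscle differed in 20 carriers, 7 higher and 13 lower in white fat, where 50.3% of all genes passed (28.6% higher, 21.7% lower), with a median of -0.07 for the family and 0.24 for all genes. With the 4 libraries that stood apart in their markers (the mixed libraries) left out, 29, 22 and 23 carriers passed in the same order. The share of all genes in that fit is not given here, so these counts have no background. Other libraries with transcripts of other cells stayed in, such as BAT vehicle 1 (muscle fibre markers at 4783 CPM) and WAT quercetin 1 (B cell markers at 2438 CPM). In the fit of all 18 libraries, the carriers passed higher in brown fat than in both other tissues numbered 14 (33.3%, against 6.5% of all genes). Those highest in muscle numbered 6 (14.3%, against 10.1%) and those highest in white fat 3 (7.14%, against 16.6%). The 12 genes of mitochondrial content examined beside the family, among them Cox4i1 and Tomm20, had a median log2 difference of 3.16 between brown and white fat with 11 passed higher in brown fat.

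Slc25a35 was higher in brown fat than in white fat by a log2 difference of 3.22 ± 0.52 (SE, adjusted p = 0.00036, edgeR) and than in muscle by 3.99 ± 0.54 (adjusted p = 0.000152). Its lowest brown fat library, at 27.9 CPM, was above the highest library of either other tissue, at 17.7 CPM. Between white fat and muscle the difference of 0.77 ± 0.49 did not pass, with a 95% interval of -0.28 to 1.82. Slc25a34 was higher in brown than in white fat by 3.71 ± 0.73 (adjusted p = 0.00132, edgeR), the largest estimate of the family, and lower in white fat than in muscle by a log2 difference of -3.64 ± 0.73 (adjusted p = 0.000897). Without WAT vehicle 1, its high white fat library, the first difference was 5.47 and the second -5.40. In vehicle groups alone the second was -1.86 and did not pass (adjusted p = 0.144, edgeR). Between brown fat and muscle Slc25a34 showed no difference that passed, with an estimate of 0.07 and an interval of -1.30 to 1.44. That estimate averages 2 unlike arms. With vehicle, all brown fat libraries (88.3 to 160.0 CPM) were above all muscle libraries (31.7 to 79.3 CPM). In quercetin groups alone the estimate was -1.01 (adjusted p = 0.533, edgeR). Averaged over the arms, the 2 relatives thus had different tissue profiles, Slc25a35 highest in brown fat and Slc25a34 lowest in white fat.

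Among the nucleotide and phosphate carriers, Slc25a4 was lower in white fat than in muscle by a log2 difference of -4.66 ± 0.45 (adjusted p = 3.5e-06, edgeR) and in between in brown fat. Muscle libraries held 2465 to 6520 CPM, white fat 133 to 204.7 CPM and 5 brown fat libraries 448 to 810 CPM, with 2310 in BAT quercetin 3, the library with muscle transcripts. Slc25a5 was lowest in muscle, which held 80.3 to 167 CPM, followed by white fat at 179 to 344.5 CPM and brown fat at 348 to 767 CPM, of which the lowest was again BAT quercetin 3. Both neighbours in that order differed, by 1.06 ± 0.27 between white fat and muscle and by 1.16 ± 0.27 between brown and white fat (adjusted p = 0.00475 and 0.00403). The first of these did not pass in vehicle groups alone (0.89, adjusted p = 0.0896) or in libraries of the sequencing flow cell H7H2WDSXX alone (0.76, adjusted p = 0.0545). Slc25a25, a calcium-regulated ATP and phosphate exchanger, was lower in brown fat than in muscle by -3.12 ± 0.80 (adjusted p = 0.00937; 0.0843 in vehicle and 0.0952 in quercetin groups alone), and Slc25a23 of the same kind was higher by 2.0 ± 0.54 (adjusted p = 0.0123).

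The carboxylate carriers moved apart. Slc25a1 was higher in brown fat than in muscle by 4.62 ± 0.87 and than in white fat by 2.70 ± 0.80 (adjusted p = 0.00139 and 0.0145, edgeR), although its brown fat libraries ran from 96.4 to 2537 CPM. Its lowest brown fat library, vehicle 1, lay below the highest library of muscle and of white fat. In muscle it was at 99.9 CPM in SKM vehicle 3 and 99.3 in SKM quercetin 2, whose adipocyte markers summed to 5650 and 3679 CPM, and at 3.73 to 22.7 CPM in the other 4, where they summed to 503 to 1961 CPM. The difference between brown fat and muscle was 5.93 without SKM vehicle 3, 5.25 without SKM quercetin 2 and 6.67 without the 4 mixed libraries. Slc25a11, which moves oxoglutarate against malate in the malate-aspartate shuttle, was lower in white fat than in muscle by -2.32 ± 0.29 (adjusted p = 3.52e-05). Its difference of -0.84 between brown fat and muscle (adjusted p = 0.0375) lost its call in 8 of 18 fits that left out a library and, at an adjusted p of 0.103, without the 4 mixed libraries. Slc25a10, the dicarboxylate carrier, was higher in white fat than in muscle by 2.38 ± 0.67 (adjusted p = 0.00859). It stood at 59.6 CPM in SKM vehicle 3 against 2.56 to 24.6 CPM in the other muscle libraries, and the difference was 3.67 without that library. Vehicle groups alone gave 1.31, which did not pass (adjusted p = 0.291). The aspartate-glutamate carrier Slc25a12, the partner of Slc25a11 in the shuttle, was at 338 to 596 CPM in muscle and 19.8 to 38.1 CPM in white fat. In brown fat it was at 4.05 to 41.0 CPM apart from BAT quercetin 3 at 101 CPM. The log2 difference between brown fat and muscle was -4.05 ± 0.64 (adjusted p = 0.000417), and -5.33 without BAT quercetin 3. Its relative Slc25a13 stayed under 1 CPM per kb on average in every tissue.

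For fuel entry, Slc25a20, the carnitine-acylcarnitine exchanger, was at 677 to 935 CPM in 5 brown fat libraries and 213 in BAT quercetin 3, against 90.2 to 177 in muscle and 32.6 to 125 in white fat. All 3 steps passed, at 3.42 ± 0.42 between brown and white fat, 2.23 ± 0.40 between brown fat and muscle and -1.19 ± 0.39 between white fat and muscle (adjusted p = 4.77e-05, 0.00107 and 0.0202, edgeR). Slc25a44, which imports branched-chain amino acids, was higher in brown fat than in white fat by 1.69 ± 0.37 and than in muscle by 1.18 ± 0.37 (adjusted p = 0.00263 and 0.0258, edgeR). Slc25a22, a glutamate carrier, was higher in brown fat than in muscle by 1.78 ± 0.33 and than in white fat by 1.09 ± 0.33 (adjusted p = 0.00135 and 0.0158).

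The cofactor and pyrimidine nucleotide carriers were the group most uniformly high in brown fat. Of the 9 tested, 8 passed higher in brown than in white fat and none lower, with a median log2 difference of 1.83. Against muscle 5 passed higher and none lower, with a median of 1.46. The NAD carrier Slc25a51 was higher than in muscle by 2.67 ± 0.38 and the peroxisomal Slc25a17 by 2.36 ± 0.29 (adjusted p = 0.00021 and 8.14e-05, edgeR). The coenzyme A carrier Slc25a42 exceeded white fat by 3.31 ± 0.52 (adjusted p = 0.000295). Slc25a26, the importer of the methyl donor S-adenosylmethionine, and Slc25a33, a pyrimidine nucleotide carrier, were lower in white fat than in either other tissue, and brown fat and muscle showed no difference that passed. Slc25a36, the other pyrimidine nucleotide carrier, passed in no tissue comparison, with estimates between -0.35 and 0.35.

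Of the glutathione and iron carriers, Slc25a39 was higher in brown fat by 2.64 ± 0.32 against muscle and 2.09 ± 0.31 against white fat (adjusted p = 6.8e-05 and 0.000176, edgeR). Its relative Slc25a40 passed only between white fat and muscle, at 0.83 ± 0.30 (adjusted p = 0.0314). That call was lost in 9 of 18 fits that left out a library, without the filter on low counts (adjusted p = 0.113), in either arm alone (0.187 and 0.118), without the 4 mixed libraries (0.0604) and without the vehicle 1 libraries (0.0846). The iron importer Slc25a37, known from red cell precursors, was lower in brown than in white fat by -1.68 ± 0.34 (adjusted p = 0.00154; 0.0512 in vehicle groups alone). Against muscle it was at -1.0 (adjusted p = 0.0369), a call lost in 11 of 18 fits that left out a library, without the filter (0.0518) and with the replicate block (0.0583). The more widely expressed Slc25a28 passed in no tissue comparison. Among the other carriers without an agreed substrate, 3 were highest in white fat. Slc25a45, Slc25a53 and Slc25a43 were higher there than in muscle by 2.37 ± 0.45, 2.61 ± 0.51 and 2.05 ± 0.58, and brown minus white fat gave -2.23 ± 0.45, -2.27 ± 0.51 and -2.18 ± 0.59. WAT vehicle 1 and quercetin 2, the libraries with B cell markers near 0, were the lowest of white fat for Slc25a53 (4.25 and 2.92 CPM against 16.5 to 23.9) and for Slc25a45 (6.00 and 19.5 CPM against 23.4 to 45.04). The same libraries were the lowest of white fat for Slc25a37 (24.3 and 32.7 CPM against 44.2 to 128) and the highest for Slc25a43 (0.981 and 1.17 CPM against 0.556 to 0.894). WAT vehicle 1 and quercetin 2 were also the only white fat libraries of a second flow cell, H7GKJDSXX. B cell transcripts and flow cell therefore cannot be told apart in white fat, and the part of either in these results was not tested. Slc25a43 did not pass against brown fat in either arm alone (adjusted p = 0.0643 and 0.0994) or against muscle in quercetin groups alone (0.178). Slc25a48 was low outside brown fat, at 2.72 to 33.1 CPM there against 0 to 1.12 in muscle and 0 to 3.60 in white fat, and exceeded muscle by 5.65 ± 1.03 (adjusted p = 0.00107, edgeR), or 6.92 without the 4 mixed libraries.

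**Figure D3:**
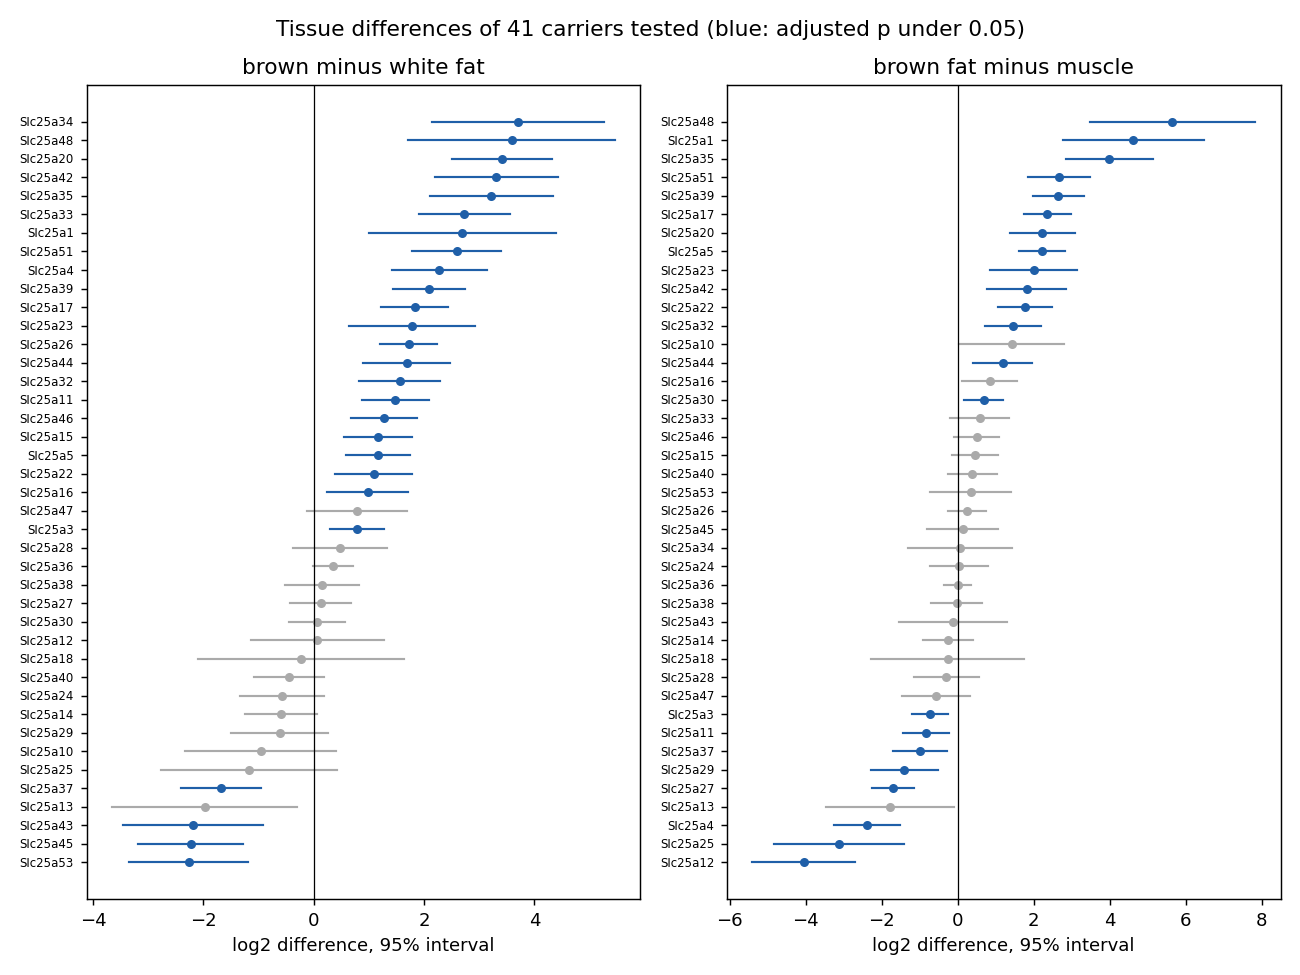
Log2 differences of 41 tested carriers with 95% intervals from edgeR, brown minus white fat (left) and brown fat minus muscle (right), sorted by size; blue marks an adjusted p under 0.05. Slc25a34 heads the left panel at 3.71 and lies at 0.07 in the right one, while Slc25a35 is among the highest in both.

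The relatives of the family with other names differed between tissues as well. Ucp1 was higher in brown than in white fat by a log2 difference of 9.87 ± 2.04 and Ucp3, an uncoupling protein relative of muscle and brown fat, was lower in white fat than in muscle by -5.65 ± 0.52. Ucp2 was highest in white fat, by 2.75 ± 0.38 against muscle. Of 21 other mitochondrial membrane transporters, such as the pyruvate carrier, 14 passed higher and 3 lower in brown than in white fat, against 18.3% and 22% of all genes.

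The effect of quercetin was tested within each tissue, where 39 carriers and 13562, 14919 and 13274 genes were tested in muscle, white fat and brown fat. By edgeR's quasi-likelihood test 0 genes passed the adjusted threshold in any tissue, which is 0% of all genes and 0 carriers, with smallest adjusted p of 0.91, 1 and 0.977. At an unadjusted p under 0.05 there were 406, 122 and 241 genes, among them 0, 4 and 1 carriers. DESeq2 called 0, 7 and 2 genes (0, 0.0469 and 0.0151%), which included Slc25a35 in white fat and Slc25a34 in brown fat. The median log2 fold change of the family was -0.05 in muscle (18 estimates above and 21 below 0), 0.01 in white fat (20 and 19) and 0.02 in brown fat (20 and 19). For all genes it was -0.03, -0.01 and 0.05. The summed family level was 7253 ± 2363 CPM with vehicle and 8036 ± 1644 with quercetin in muscle (SD, n = 3), 2046 ± 719 and 2275 ± 231 in white fat, and 6319 ± 391 and 7259 ± 1662 in brown fat, with overlapping spreads throughout.

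**Figure D4:**
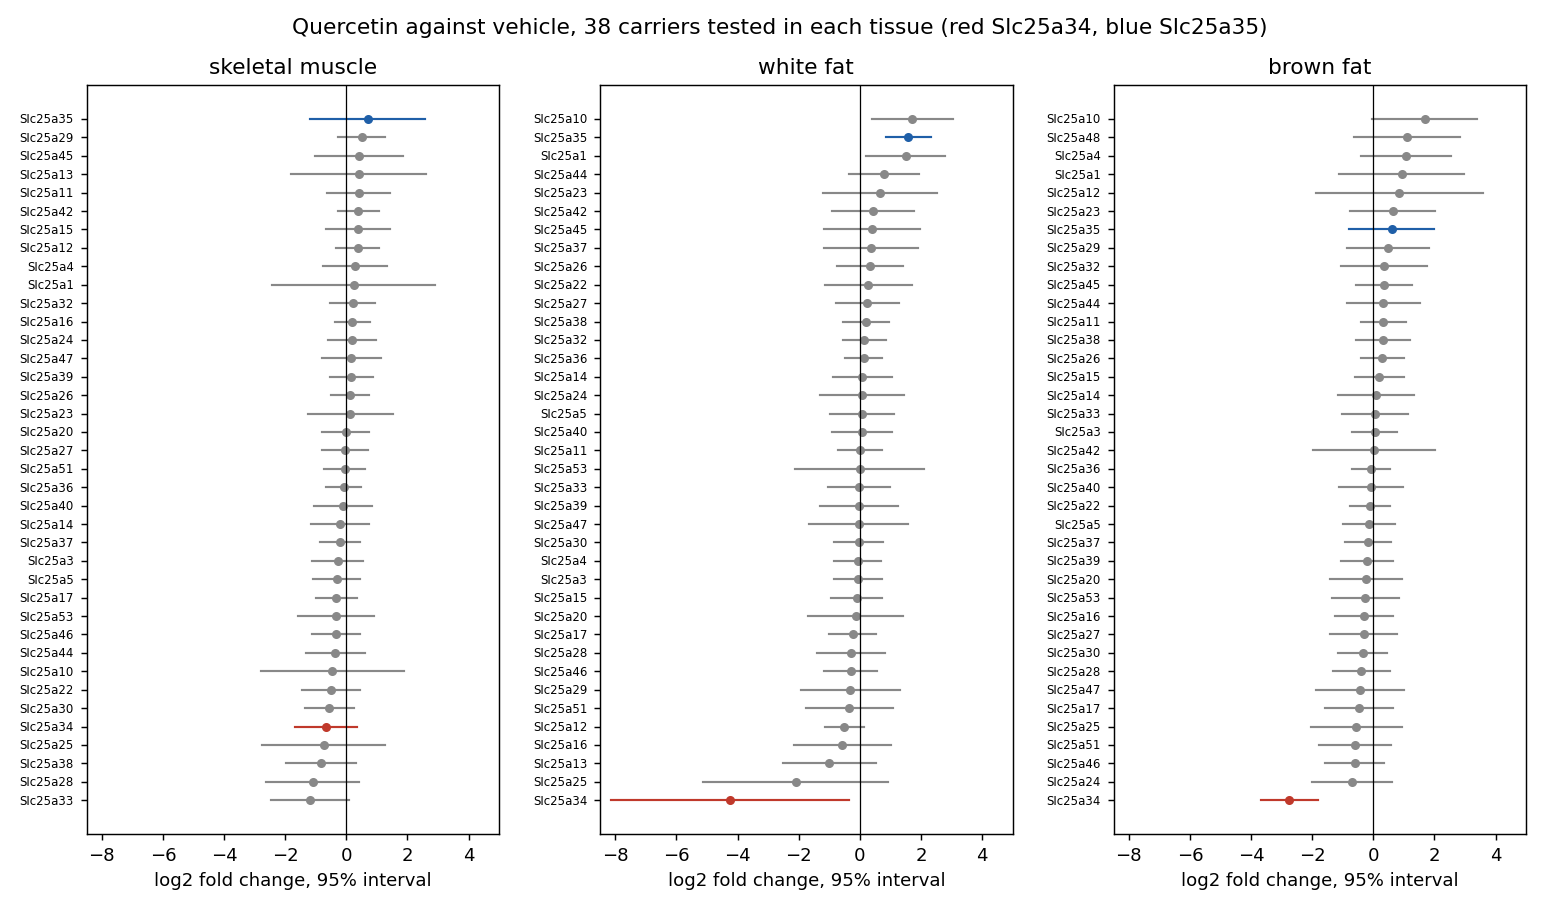
Log2 fold changes of 38 tested carriers under quercetin with unadjusted 95% intervals from edgeR, in muscle, white fat and brown fat; Slc25a34 is red and Slc25a35 blue. Most intervals cross 0; Slc25a34 lies lowest in brown fat at -2.75 and in white fat at -4.25, and no carrier passed the adjusted threshold.

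In brown fat Slc25a34 had the smallest unadjusted p of all 13274 genes. Its log2 fold change was -2.75 ± 0.40 (95% interval -3.69 to -1.82), with an unadjusted p of 0.000194 and an adjusted p of 0.977 by edgeR's quasi-likelihood test. All 3 quercetin libraries were below all 3 vehicle libraries, for which an exact two-sided permutation test gave p = 0.1, the smallest that 3 against 3 allow. DESeq2 gave -2.75 with an adjusted p of 5.8e-06, and its other called gene was Alb, the liver's serum albumin. Leaving out any library left the edgeR estimate between -3.01 and -2.41. The arms of 1 of the 39 carriers did not overlap in brown fat, Slc25a34 itself, against 6.19% of all genes (2.87% higher and 3.32% lower under quercetin). BAT quercetin 3, with its muscle transcripts, was not the extreme library at 16.0 CPM. Slc25a35 was at 0.60 ± 0.60 in brown fat, with an interval of -0.80 to 1.99, at 0.17 without BAT quercetin 1 and at 0.98 without BAT quercetin 3.

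In white fat Slc25a35 had the smallest unadjusted p of the family and ranked 5 among 14919 genes. Its log2 fold change was 1.58 ± 0.30 (95% interval 0.85 to 2.32), with an unadjusted p of 0.00181 and an adjusted p of 1 by edgeR's quasi-likelihood test; the exact permutation p was 0.1. DESeq2 gave 1.56 with an adjusted p of 2.38e-05, and limma with library weights an adjusted p of 0.33. The vehicle values of 4.58 to 5.81 CPM came from libraries whose 6 adipocyte markers summed to 528 to 36390 CPM, and the quercetin values of 15.5 to 17.7 CPM from libraries at 4549 to 14120 CPM. Slc25a34 in white fat was at -4.25 ± 1.61 (unadjusted p = 0.0372, adjusted p = 1, edgeR), which rested on WAT vehicle 1. Without that library the value was -0.64, and with only libraries of the flow cell H7H2WDSXX, which also drops that library, it was -0.87. In muscle Slc25a34 was at -0.66 ± 0.45 and Slc25a35 at 0.70 ± 0.82 (exact permutation p = 0.5 and 0.6), and without SKM vehicle 1 they were at -0.18 and 0.17.

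White fat was the tissue with most separated carriers. Arms did not overlap for 5 of the 39 (4.44% of all genes, 2.61% higher and 1.83% lower), with Slc25a1, Slc25a10 and Slc25a35 higher and Slc25a12 and Slc25a34 lower under quercetin, none of which passed the adjusted threshold by edgeR. The citrate carrier Slc25a1 was at 144, 51.8 and 81.3 CPM with vehicle and 242, 175 and 388 CPM with quercetin, a log2 fold change of 1.5 ± 0.54 (unadjusted p = 0.0302). The dicarboxylate carrier Slc25a10 was at 72.2, 26.1 and 68.6 CPM with vehicle and 111, 226 and 221 CPM with quercetin, at 1.71 ± 0.54 (unadjusted p = 0.0191). Every quercetin library of either gene was above every vehicle library. The lowest value of both genes was that of WAT vehicle 2, a mixed library. Leaving out each library in turn left Slc25a1 between 1.135 and 2.01. Slc25a10 then lay between 1.36, without WAT vehicle 2, and 1.99. Slc25a12 was at 32.3, 38.1 and 28.4 CPM with vehicle and 19.8, 22.6 and 27.5 CPM with quercetin, at -0.51 ± 0.26 (unadjusted p = 0.0962), a gap of less than 1 CPM between the nearest libraries. The 3 tested dicarboxylate and tricarboxylate carriers were all above 0, with a median of 1.5, but Slc25a11 was at 0.01. Of 16 tested enzymes that work with the carriers, 9 had estimates above 0 and 7 below, none passed, and the median was 0.185. Among them, chosen after their values were seen, were ATP citrate lyase Acly at 1.11 ± 0.32 (unadjusted p = 0.0136) and malic enzyme Me1 at 1.77 ± 0.60 (unadjusted p = 0.0251).

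The promoters of these separated white fat carriers are shown so that their start regions can be compared, from the RefSeq-based table of GRCm38.p6, 250 bases before to 50 after the annotated start, 5′ to 3′ on the gene's strand. The table held 36 of the 47 carriers, and Slc25a35 is named only. Capitals mark matches on either strand to AGGTCA (a core site of nuclear receptors), CACGTG (an E-box), TCACNCCAC (a sterol regulatory element), GTAAACA (a forkhead site), CCAAT (the CCAAT box) and GGGCGG (a GC box), none of which contains another.
Slc25a34, chr4:141623785-141624084, minus strand: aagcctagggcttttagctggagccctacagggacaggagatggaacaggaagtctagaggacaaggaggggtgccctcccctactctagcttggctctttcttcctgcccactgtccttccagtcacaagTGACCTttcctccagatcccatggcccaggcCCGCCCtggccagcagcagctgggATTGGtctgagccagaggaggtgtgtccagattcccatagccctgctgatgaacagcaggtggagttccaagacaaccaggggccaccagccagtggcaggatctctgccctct
Slc25a1, chr16:17928170-17928469, minus strand: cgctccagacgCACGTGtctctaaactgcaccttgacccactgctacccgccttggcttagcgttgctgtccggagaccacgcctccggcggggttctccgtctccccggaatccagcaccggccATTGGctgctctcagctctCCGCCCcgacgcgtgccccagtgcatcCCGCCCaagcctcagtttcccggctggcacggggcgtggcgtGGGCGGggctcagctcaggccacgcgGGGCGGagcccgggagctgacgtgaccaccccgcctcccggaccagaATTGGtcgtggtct
Slc25a10, chr11:120491587-120491886, plus strand: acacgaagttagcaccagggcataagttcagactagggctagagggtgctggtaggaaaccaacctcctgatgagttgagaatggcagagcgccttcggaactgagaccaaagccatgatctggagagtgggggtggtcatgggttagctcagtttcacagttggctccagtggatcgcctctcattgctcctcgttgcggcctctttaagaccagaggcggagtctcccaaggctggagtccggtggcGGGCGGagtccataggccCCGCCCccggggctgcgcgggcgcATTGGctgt
Slc25a12, chr2:71367706-71368005, minus strand: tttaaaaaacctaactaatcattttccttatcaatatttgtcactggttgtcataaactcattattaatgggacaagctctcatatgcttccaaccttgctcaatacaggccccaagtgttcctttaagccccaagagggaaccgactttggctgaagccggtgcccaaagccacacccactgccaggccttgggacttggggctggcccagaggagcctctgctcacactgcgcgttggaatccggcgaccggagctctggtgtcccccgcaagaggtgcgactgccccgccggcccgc
Slc25a1 held 1 E-box, 2 CCAAT boxes and 4 GC boxes, Slc25a10 held 1 CCAAT box and 2 GC boxes, and Slc25a34 held 1 nuclear receptor site, 1 CCAAT box and 1 GC box. No motif matched in the window of Slc25a12. Among 32817 promoters of this length 16.3% held the nuclear receptor site, 7.15% the E-box, 1.24% the sterol element, 3.65% the forkhead site, 37.4% the CCAAT box and 35.6% the GC box. Of 46 promoters of the 36 carriers, 38 held the GC box, 22 the CCAAT box, 8 the E-box and 4 the nuclear receptor site. The sterol element was in 1 of them and the forkhead site in 0. A match describes these letters only.

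In brown fat Slc25a10 was at 16.3, 28.8 and 44.1 CPM with vehicle and 67.2, 24.9 and 184 CPM with quercetin. Its log2 fold change of 1.68 ± 0.74 (unadjusted p = 0.0555, edgeR) fell to 0.59 without BAT quercetin 3. Slc25a4 in brown fat was at 1.06 ± 0.63 and, without that library with muscle transcripts, at 0.06. Slc25a1 was at 0.93 ± 0.87 there, with the lowest level of all in BAT vehicle 1. Among the other carriers with the smallest unadjusted p in brown fat, Slc25a48 was at 1.09 ± 0.74 (0.29 without BAT quercetin 1), Slc25a46, an outer membrane protein of mitochondrial shape, at -0.61 ± 0.42 and Slc25a24 at -0.69 ± 0.55 (-0.06 without BAT vehicle 1).

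**Figure D5:**
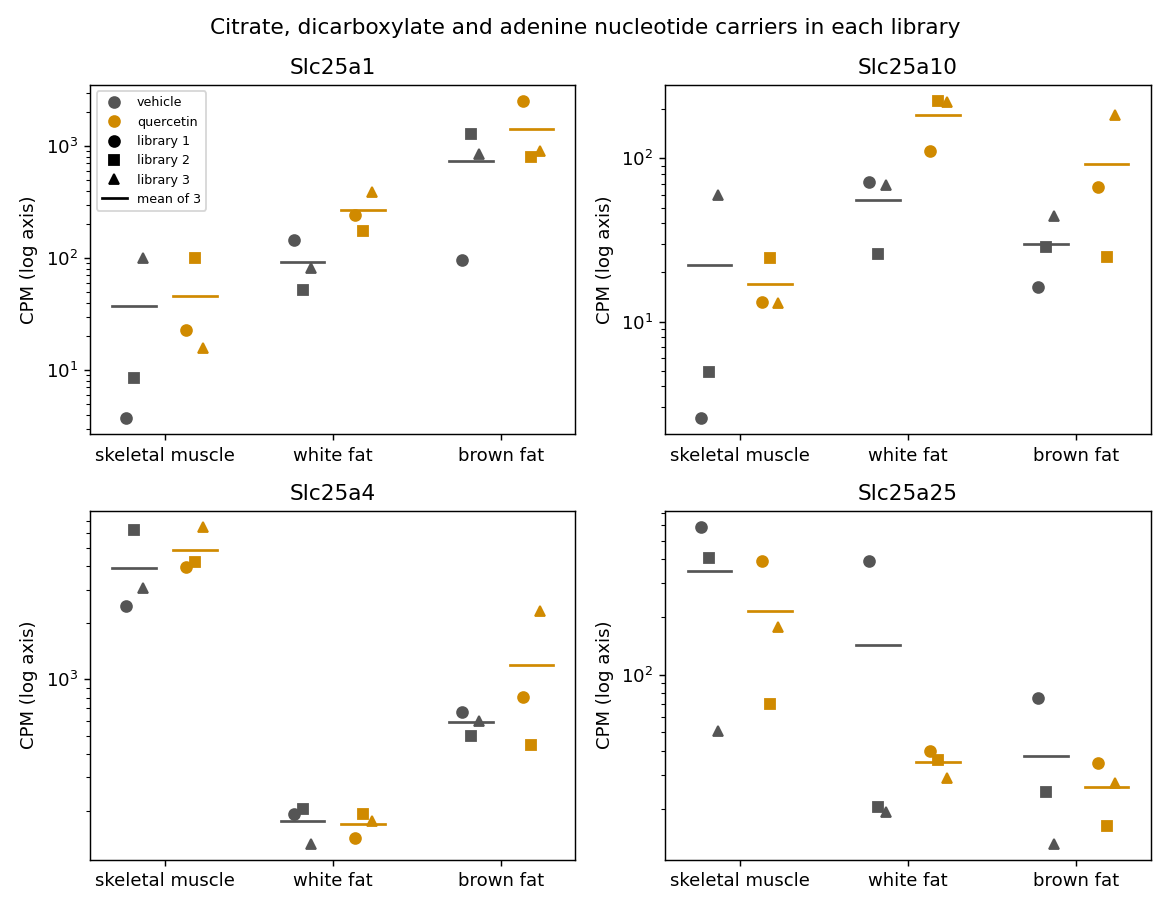
CPM of the citrate carrier Slc25a1, the dicarboxylate carrier Slc25a10, the ADP/ATP exchanger Slc25a4 and the ATP and phosphate exchanger Slc25a25 on log axes in each of the 18 libraries, by tissue and arm; shapes give the library number and bars the mean of 3. In white fat all quercetin points of Slc25a1 and Slc25a10 lie above the vehicle points; Slc25a25 is highest in vehicle 1 in each tissue, and the high brown fat point of Slc25a4 is quercetin 3 at 2310 CPM.

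In muscle no carrier had an unadjusted p under 0.05. The smallest was that of Slc25a33 at -1.19 ± 0.55 (unadjusted p = 0.0637, edgeR), which was -0.25 without SKM vehicle 1, where it stood at 57.3 CPM against 11.7 to 18.8 CPM in the other 5. The iron carrier Slc25a28 at -1.10 ± 0.66 rested on the same library, at 295 CPM against 49.6 to 78.9 CPM, and was 0.19 without it. The glycine carrier Slc25a38 was at -0.83 ± 0.50 and at -0.15 without that library, and the basic amino acid carrier Slc25a29 was at 0.50 ± 0.33 and Slc25a42 at 0.39 ± 0.29. Slc25a12 was the only carrier of 39 whose arms did not overlap in muscle (9.25% of all genes, 5.85% higher and 3.4% lower), at 338, 516 and 400 CPM with vehicle and 529, 535 and 596 CPM with quercetin, a log2 fold change of 0.37 ± 0.30.

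The libraries numbered vehicle 1 stood at an end of the range more often than the others. Of 38 carriers tested in all 3 tissues, Slc25a25, Slc25a28, Slc25a34 and Slc25a46 were highest of 6 in vehicle 1 in every tissue. Slc25a11, Slc25a29 and Slc25a35 were among those lowest there in every tissue. Among all 12261 genes tested in all 3 tissues, 5.77% were highest and 6.98% lowest in vehicle 1 in every tissue, against at most 0.701% for any other library number. Slc25a25 was at 592, 390 and 75.8 CPM in the vehicle 1 libraries of muscle, white fat and brown fat, against 50.9 to 403.5, 19.2 to 40.1 and 13.1 to 34.7 CPM in the others. Its white fat estimate of -2.10 ± 1.25 under quercetin was 0.83 without WAT vehicle 1. Without vehicle 1, Slc25a34 spanned 18.6 to 43.3 CPM in muscle. Its white fat range was then 0.477 to 1.34 CPM and its brown fat range 11.5 to 90.1 CPM, where both remaining vehicle libraries were still above all quercetin libraries.

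Spread within a tissue differed widely over the family. Among carriers with at least 1 CPM in all 6 libraries, the highest library exceeded the lowest by a median of 2.13-fold in muscle, 2.69-fold in white fat and 4-fold in brown fat. Slc25a1 had the widest range in muscle (26.8-fold, with its 2 highest values in SKM vehicle 3 and quercetin 2) and in brown fat (26.3-fold), and Slc25a25 in white fat (20.4-fold). The narrowest were Slc25a36 in muscle (1.34-fold) and Slc25a3 in white and brown fat (1.40-fold and 1.39-fold).

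Whether the quercetin effect differed between tissues was tested as an interaction over all 18 libraries. By edgeR 0 of 16388 genes and 0 of 42 carriers passed for any pair of tissues (0% of all genes), with 231, 173 and 223 genes at an unadjusted p under 0.05, while DESeq2 called 7, 13 and 2 genes and no carrier for white fat against muscle, white against brown fat and brown fat against muscle. The carrier with the smallest p was Slc25a34 for white fat against muscle, at -3.56 ± 1.37 (unadjusted p = 0.0199, adjusted p = 1), and at -0.04 without WAT vehicle 1. For brown fat against muscle it was at -2.15 ± 1.30 (unadjusted p = 0.119). For Slc25a35 the 3 interactions lay between -0.12 and 0.98, all with intervals across 0. The lower Slc25a34 in brown fat and the higher Slc25a35 in white fat were therefore not shown to be particular to those tissues.

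Likeness of pattern was measured as Pearson's r of log2(CPM + 1) over the 18 libraries, which share tissue and depth, as a description. Closest to Slc25a34 were mt-Nd6, Gm10638, Pdk4, Mlycd and Fgf9, with r of 0.91 to 0.916, and in the family Slc25a46 (0.835), Slc25a33 (0.764) and Slc25a26 (0.735). Within single tissues Slc25a46 was at 0.652 to 0.894, whereas Slc25a33 fell to 0.0784 in brown fat. Slc25a26 was at 0.0224 in muscle and -0.496 in brown fat. Gm10638 was at -0.0182 in muscle and Pdk4 at 0.334 in brown fat, while mt-Nd6, Mlycd and Fgf9 were at 0.498 or more in each tissue. Closest to Slc25a35 were Ptger3 (0.973), Ifi27, Ppp2r5a, Hebp2 and Ak3 (0.964), and close to it in the family were Slc25a1 (0.899) and Slc25a39 (0.873). Within single tissues Slc25a1 was at 0.759 to 0.82, but Slc25a39 was at 0.719 in muscle, 0.00945 in white fat and 0.321 in brown fat. Ptger3, a prostaglandin E2 receptor, was also among the 7 genes that DESeq2 called in white fat, at a log2 fold change of 2.58 ± 0.49. Slc25a34 and Slc25a35 had an r of 0.08 with each other over all 18 libraries. Over the 6 libraries of a tissue it was -0.651 in muscle, -0.626 in white fat and -0.474 in brown fat. In every tissue vehicle 1 was the highest of the 6 libraries for Slc25a34 and the lowest for Slc25a35. The r without vehicle 1 was not computed, so these values do not show opposed patterns beyond that library.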

How the data were processed

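RNA sequencing counts were analysed for 18 libraries, 3 for each of 6 groups of tissue and arm taken from the labels. The deposited counts are raw reads per Ensembl gene; the submitters' processing notes name HISAT2, HTSeq, DESeq2 and the build mm10, and the strand setting is not given in the sources used here. Symbols, coordinates and exon lengths came from GENCODE M21 (GRCm38), which matched 53274 of 53465 identifiers. Quercetin was tested within each tissue, and tissues and interactions over all libraries, with edgeR 4.0.16 in R 4.3.3 (filterByExpr with a minimum count of 10 and total of 15, TMM, glmQLFit, two-sided quasi-likelihood test, Benjamini-Hochberg over all genes tested, threshold 0.05). Levels are CPM with TMM factors of all 18 libraries, per kb of exon union where genes are compared; fold changes come from the fit. DESeq2 1.42.0, limma 3.58.1 with library weights, RLE factors, no filter, other sample sets, a replicate block and leaving out each library were alternatives, and the calculations were tested on simulated data. Promoters came from RefSeq. The members, role lists and tests were chosen with earlier results of these data known. Named carriers are Slc25a34, Slc25a35 and up to 10 passed in each direction per tissue comparison. Under quercetin the 3 with the smallest p in each direction were added. The tallies over settings count all of these. Some of their tissue differences are not given in the text, such as those of Slc25a3, Slc25a27, Slc25a29, Slc25a30 and Slc25a47. Other carriers in the text were chosen after their values were seen. No pair of replicates was close enough to be a copy (lowest chi-square per degree of freedom 27.0 over 18 pairs). PCR reads carry no molecular identifiers, so counting error alone understates the spread. The values of 1 member are not reported here, although it is included in the counts and medians of the family.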

Additional observations from a re-analysis of the deposited data

Results flagged for a closer look

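Slc25a12, the aspartate-glutamate carrier, was singled out because its arms did not overlap in muscle and in white fat, in opposite directions. Among all genes tested, arms did not overlap for 9.25% in muscle and 4.44% in white fat. The share that did so in opposite directions was not counted. All 3 quercetin libraries of muscle were above the vehicle libraries (529 to 596 against 338 to 516 CPM), and all 3 of white fat were below them (19.8 to 27.5 against 28.4 to 38.1 CPM). The test of the difference itself, the interaction contrast of edgeR over all 18 libraries, gave a log2 difference of -0.90 ± 1.13 for white fat minus muscle (unadjusted p = 0.437, adjusted p = 1), which did not pass.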

How the results depend on the processing

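Of the quercetin log2 fold changes of named carriers over all settings, 267 kept direction and side of the threshold, 5 reversed and 2 gained a call. No carrier passed in the main fits, so a call could only be gained, and many settings share most of their libraries. The 2 gained calls were Slc25a35 in white fat and Slc25a34 in brown fat, both with DESeq2. For tissue differences 1309 kept both, 89 lost the call and 6 reversed, and for interactions 135 kept both and 9 reversed. With DESeq2, 7 genes and 1 carrier passed in white fat (Slc25a35 at 1.56) and 2 genes and 1 carrier in brown fat (Slc25a34 at -2.75), and the interactions had 7, 13 and 2 genes. Without the filter, 32 genes passed in muscle. In vehicle groups alone, 3106 genes passed in brown against white fat, 1689 genes and 13 carriers in brown fat against muscle, and 5076 genes and 10 carriers in white fat against muscle, where Slc25a34 was at -1.86 and lost its call. In quercetin groups alone these were 2997, 1703 and 13, and 4587 and 12, and Slc25a34 in brown fat against muscle was at -1.01; these settings use fewer libraries. Slc25a28 in muscle was at 0.03 with limma weights and 0.19 without vehicle 1. Slc25a25 in white fat was at 0.52 with limma weights, 0.76 on the single flow cell and 0.83 without vehicle 1. As additions chosen after seeing the data, leaving out the 4 mixed libraries moved the Slc25a35 interaction of brown fat against muscle to 0.26. Leaving out all vehicle 1 libraries moved it to 0.083 and that of Slc25a34 for white against brown fat to 1.67. The cause of these changes was not tested.
Leaving out each library in turn left 0 to 1 genes in brown fat; the single gene, Gm12033, passed without BAT quercetin 3. Slc25a28 in muscle lay between -1.47 and 0.19, and Slc25a25 in white fat between -2.61 and 0.83. Slc25a34 lay between -0.12 and 0.30 for brown fat against muscle and between -2.02 and 2.11 for its interaction of white against brown fat, and Slc25a35 between -0.56 and 0.42 for its interaction of brown fat against muscle. The replicate numbers were not shown to pair the arms. For the same number, the correlation of deviations exceeded 0.1 in 1, 0 and 1 of 3 pairs in brown fat, muscle and white fat. Pairs of unlike number exceeded 0.1 too, so this check cannot decide whether the arms were paired. Across tissues, same-numbered libraries of an arm exceeded 0.1 in 5 of 6 pairs for brown fat and muscle. For white fat and muscle 3 of 6 did so, and for brown and white fat 2 of 6. Within vehicle all 3 pairs did so for brown fat with muscle (0.154 to 0.283) and white fat with muscle (0.136 to 0.285), and not every pair of both arms did. Some pairs of unlike number exceeded 0.1 as well, such as BAT quercetin 2 with WAT quercetin 3 (0.163). Between the white fat arms, vehicle 2 with quercetin 1 reached 0.71, so a value over 0.1 does not by itself show a shared animal. With arm and number as a replicate block, 25 of 42 carriers and 6319 of 16388 genes passed in brown against white fat. In brown fat against muscle 22 carriers and 4370 genes passed, and Slc25a37 lost its call. In white fat against muscle 22 carriers and 8071 genes passed. With the number as a replicate block, 0 genes passed for quercetin in any tissue, Slc25a34 in white fat was at -1.92 and Slc25a35 there at 1.59. Lengths from the longest transcript moved 14 of 30 levels per kb by more than their spread. With 6 to 18 reads, Slc25a34 in 5 white fat libraries was near the limit of depth.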
